A study of Mus musculus with 6 samples.

Results

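Complex I, the NADH:ubiquinone oxidoreductase of the mitochondrial inner membrane, is encoded mostly by nuclear genes whose symbols begin with Nduf. The probe sets described here are those whose platform annotation names a single symbol for a numbered structural subunit (Ndufa, Ndufb, Ndufc, Ndufs, Ndufv and Ndufab1, without the Ndufaf assembly factors). They are 78 of 45101 probe sets on the array and stand for 36 of 18193 genes. A further 10 probe sets name such a subunit together with another gene or a pseudogene and are not counted as members. Lung RNA of 6 wild type mice was hybridised to Affymetrix arrays, 1 per mouse, and the mice had been fed either a control diet (n = 3) or a high fat diet (n = 3). The wild type genotype is shared by both groups. The sources used here do not give the strain, the age and sex of the mice or the length and make-up of the diets. Since the labels do not say how the mice were housed or the samples processed, p-values measure only the spread between these 6 mice.

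Complex I oxidises NADH made by the citric acid cycle and fatty acid oxidation, passes the electrons to ubiquinone and pumps protons out of the matrix. It is L-shaped. The matrix arm holds the flavin and the iron-sulphur clusters, and the membrane arm holds the proton channels, whose central parts are encoded by mitochondrial DNA. Conserved core subunits carry out the reaction, and many small accessory subunits surround them and are needed for assembly and stability. Complex I is abundant in heart muscle and brown fat, and lung tissue can hold some of both, in the walls of the pulmonary veins and beside the airways.

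Signals are MAS5 intensities, relative to the other probe sets of the same array. The difference between the diets is given as the log2 signal in high fat mice minus that in control mice, with its standard error (SE). A gene is represented by its brightest probe set that names it alone, and is called when limma's Benjamini-Hochberg adjusted p, over 12689 genes, is under 0.05. Of the 36 genes, 35 passed the filter on dim probe sets, and Ndufb4 did not. Median signals of all probe sets were 143.3 to 150.3 on control and 113.4 to 128.7 on high fat arrays. Dividing the signal at a transcript's 3' end by that at its 5' end, a measure of RNA integrity, gave 0.743 to 0.795 in control and 0.854 to 0.957 in high fat mice for Gapdh, and 1.194 to 1.437 and 1.503 to 1.546 for b-Actin (two-sided exact permutation p = 0.1 for each, the smallest that 3 against 3 mice can give). The ratio of the 3' end to the middle overlapped between the diets, with control and high fat means of 0.986 and 0.990 for Gapdh and 1.235 and 1.281 for b-Actin. The part of RNA integrity in the results below was not tested. The lung label was checked with the surfactant gene Sftpc, which had signals of 32996 to 69407 in control and 45581 to 57324 in high fat mice. Of 15 alveolar and airway epithelial markers 0 were called, which is near the 6.75 percent of all genes called. Of these 15, 13 had differences above 0 (median log2 difference 0.21), so the count does not show that they were unchanged.

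Transcripts of many complex I subunits were higher in the lungs of high fat mice. Of 35 genes tested, 16 rose and 0 fell, which is 45.7 percent called, while over all genes 4.56 percent were called higher and 2.2 percent lower, 6.75 percent in all. The median log2 difference was 0.59 over the 35 complex I genes and 0.06 over all genes, and 34 of the 35 differences were above 0. The groups did not overlap, with high fat mice higher, for 22 of the 35 genes, against 19.7 percent of all genes, and with high fat mice lower for 0, against 12.1 percent. Complex I genes are bright on this array, and of 4568 genes with a mean signal of 1000 or more 7.71 percent were called higher, against 16 of 33 complex I genes in that range. The summed signal of the 35 genes was 106850, 96243 and 108359 in control replicates 1, 2 and 3 and 201880, 144709 and 145303 in high fat replicates 1, 2 and 3. In a bulk lysate, a higher signal cannot separate more cells of a kind that is rich in complex I from more RNA per cell.

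Mice differed within the high fat group. High fat replicate 1 had the highest signal of all 6 mice for 32 of the 35 genes and for 15 of the 16 that rose, the exception being Ndufa2. Control replicate 2 had the lowest signal for 24 of the 35 genes. Without high fat replicate 1, 10 genes were called and the median log2 difference was 0.44. Leaving out control replicate 1 gave 10 called genes, control replicate 2 gave 6 and control replicate 3 gave 5. Leaving out high fat replicate 2 gave 13 and high fat replicate 3 gave 11. In these 6 fits 0 complex I genes were called lower. Ndufa1, Ndufa2, Ndufa3 and Ndufb3 were called in all 6. They were also the 4 genes called when limma's spread was not modelled on intensity.

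**Figure D1:**
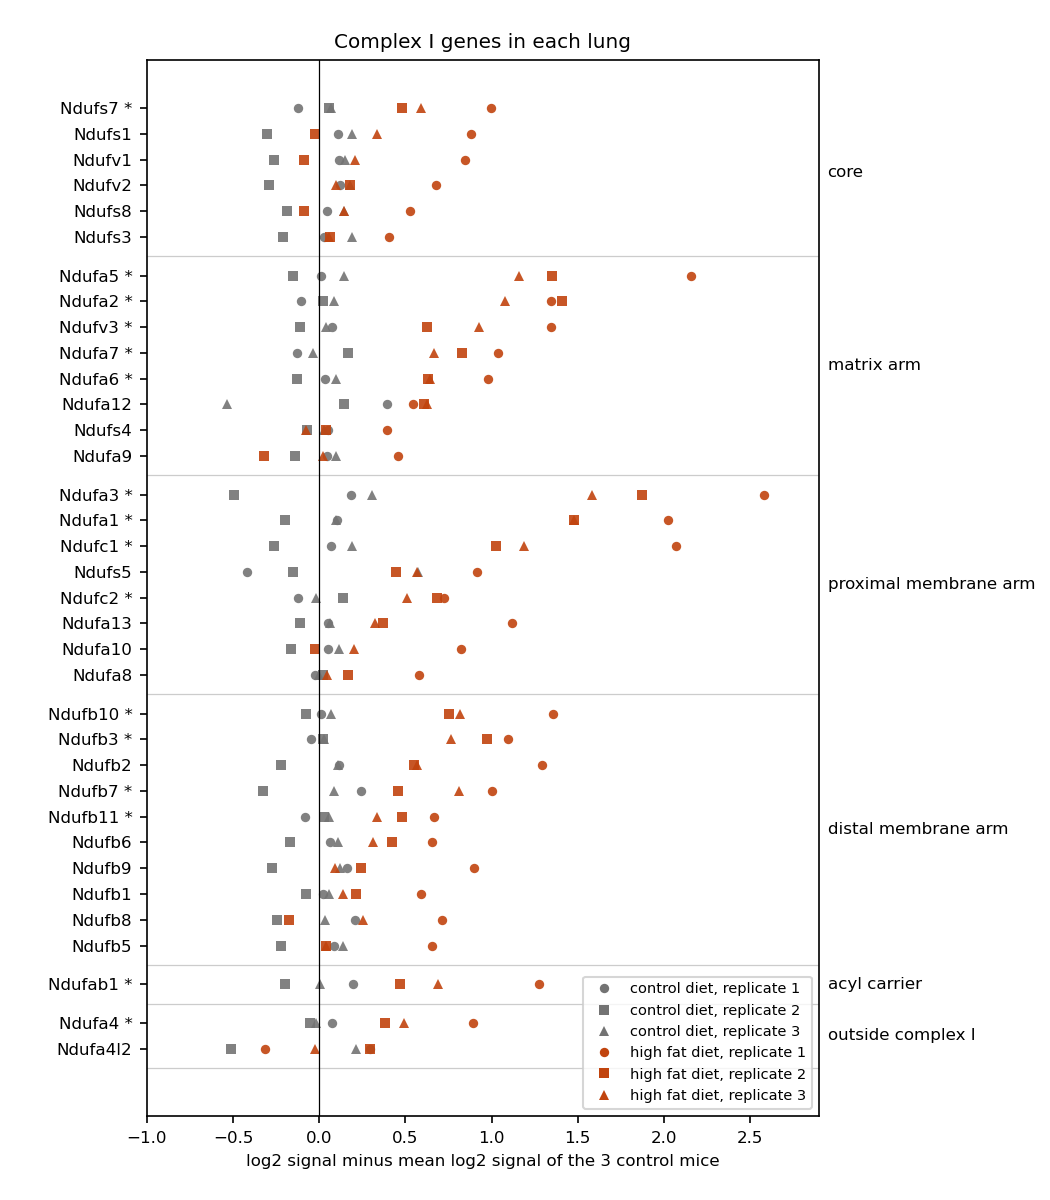
Log2 signal of each of the 35 tested genes in each mouse, minus the mean of the 3 control mice, on the horizontal axis, with genes grouped by their place in the enzyme. Grey symbols are control and orange symbols high fat mice, the symbol shape gives the replicate, and an asterisk marks the 16 called genes. High fat replicate 1 lies farthest to the right for most genes, and core subunits spread less to the right than accessory ones.

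Because 16 genes rose together, complex I promoters were searched for short motifs of factors known to act on nuclear genes of the respiratory chain. RefSeq promoter windows of build GRCm38.p6, from 250 bases before to 50 after a start site, were found for 32 of the 36 genes, and for 15 of the 16 called. The NRF1 motif, searched like the others on both strands, was in 5 of 32 genes (15.6 percent, against 5.19 percent of all 27025 genes with a window). AANATGGCG of YY1 was in 6 (18.8 against 2.76 percent), CCGGAAG of ETS factors such as GABP in 4 (12.5 against 9.93 percent), TNAAGGTCA of oestrogen-related receptors in 1 (3.1 against 1.43 percent) and GGGCGG of Sp1 in 15 (46.9 against 38.2 percent). Among the 15 called genes with a window, these counts were 2, 4, 1, 0 and 6, in the same order of motifs. The YY1 letters hold an ATG and can also mark a translation start, on either side of an annotated start site. They began at position 23 in Ndufc1, 30 in Ndufa9, 25 in Ndufs7 and 36 in Ndufs4, all after the start site. In Ndufa7 they began at -18 and in Ndufb11 at -211. Translation starts were not separated from these counts, so the YY1 share cannot be read as factor sites alone. The capitals in the Ndufa7 and Ndufb11 stretches below each hold an ATG and may likewise mark a translation start. Motif letters are a description and do not show binding. The stretches below come from called genes with a motif upstream of the start site, the motif in capitals, each read 5′ to 3′ on the gene's own strand.
Ndufa5, NRF1 letters, chr6:24527691-24527756, minus strand: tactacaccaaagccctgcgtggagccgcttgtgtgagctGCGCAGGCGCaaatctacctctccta
Ndufa7, YY1 letters, chr17:33824587-33824644, plus strand: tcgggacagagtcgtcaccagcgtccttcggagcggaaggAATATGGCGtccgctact
Ndufb11, YY1 letters, chrX:20617782-20617869, minus strand: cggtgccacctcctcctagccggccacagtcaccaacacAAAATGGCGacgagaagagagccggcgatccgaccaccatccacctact
Ndufb7, ETS letters, chr8:83566698-83566757, plus strand: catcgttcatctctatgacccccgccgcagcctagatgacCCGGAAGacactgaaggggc

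Most core subunits of the matrix arm did not pass the test. Of 6 core genes tested, 1 rose and 0 fell (median log2 difference 0.32, range 0.18 to 0.69). The one that rose was Ndufs7, whose iron-sulphur cluster hands electrons to ubiquinone. Its signals were 2771, 3144 and 3174 in control and 6029, 4214 and 4553 in high fat mice, which is 1.61-fold (log2 0.69, SE 0.15, limma adjusted p = 0.0327). All 3 high fat mice lay above the controls. A second Ndufs7 probe set, of similar brightness, gave 3219, 2746 and 3432 against 4764, 3423 and 3979 (log2 0.37, limma adjusted p over probe sets 0.134). It overlapped between the diets, and with plain _at probe sets only Ndufs7 was not called (limma adjusted p = 0.163). On its representative probe set Ndufs7 was called in 1 of 6 fits with 1 mouse left out, with an adjusted p up to 0.0948 without control replicate 3, and at 0.109 without replicate 1 of both groups.

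The other core genes were not called. Ndufv1, which binds NADH and the flavin, had signals of 3193, 2460 and 3270 in control and 5299, 2779 and 3406 in high fat mice (log2 0.32, limma adjusted p = 0.406). Ndufv2, its partner with an iron-sulphur cluster, had 4835, 3637 and 5034 against 7119, 5051 and 4773 (log2 0.32, limma adjusted p = 0.312). In both, replicate 1 stood above the other high fat mice, and the remaining high fat values fell within or next to the control range. Another bright Ndufv2 probe set had the opposite sign, with 2920, 2545 and 2903 against 3405, 1771 and 1619. It was not called (log2 -0.38, limma adjusted p over probe sets 0.334). Ndufs1, the largest subunit, carries iron-sulphur clusters and had signals of 2008, 1511 and 2127 in control and 3433, 1833 and 2347 in high fat mice (log2 0.40, limma adjusted p = 0.305). Ndufs3, a core subunit next to the ubiquinone site, had 3157, 2676 and 3534 against 4109, 3240 and 3230 (log2 0.18, limma adjusted p = 0.489). Ndufs8, with further iron-sulphur clusters, had 5012, 4270 and 5384 against 7011, 4584 and 5380 (log2 0.20, limma adjusted p = 0.504). In these 3 genes the diets overlapped.

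Among accessory subunits of the matrix arm, 5 of 8 rose and 0 fell (median log2 difference 0.80, range 0.05 to 1.56). With plain _at probe sets only, 5 of these genes could be tested, 2 were called and the median was 0.12. Ndufa2, Ndufa7 and Ndufv3 have no such probe set and were left out, and Ndufa12 was read from a dim one. Ndufa2, a small protein with a thioredoxin-like fold, had signals of 1768, 1936 and 2021 in control and 4844, 5053 and 4029 in high fat mice, which is 2.42-fold (log2 1.28, SE 0.12, limma adjusted p = 0.00251). It had the smallest adjusted p of the complex I genes and was the only one of the 16 not highest in high fat replicate 1. Ndufa5, a peripheral subunit of the matrix arm, went from 879, 787 and 964 to 3898, 2224 and 1952 (2.94-fold, log2 1.56, SE 0.24, limma adjusted p = 0.0111). Its dimmer probe set gave 628, 642 and 617 against 2103, 1285 and 1474 (log2 1.33), so the rise was seen with both. The adjusted p of Ndufa5 reached 0.0524 without control replicate 2.

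Ndufv3, which sits beside the flavin-bearing subunits, had signals of 2975, 2625 and 2907 in control and 7193, 4365 and 5380 in high fat mice (1.95-fold, limma adjusted p = 0.0181). Ndufa7, another accessory subunit of the matrix arm, had 3588, 4403 and 3825 against 8055, 6979 and 6234 (1.8-fold, limma adjusted p = 0.0123). All 5 probe sets of Ndufa7 were called over probe sets, with log2 differences from 0.73 to 1.09. Ndufa6 belongs to the LYR family, which anchors the acyl carrier protein, and had signals of 2324, 2078 and 2429 in control and 4476, 3513 and 3541 in high fat mice (1.68-fold, limma adjusted p = 0.0166). The groups did not overlap for these 3 genes. With 1 mouse left out, Ndufa7 was called in 5 of 6 fits (up to 0.0593 without control replicate 3), and Ndufv3 and Ndufa6 in 4 of 6 (up to 0.0749 and 0.0698, both without control replicate 2).

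The remaining matrix arm genes were not called on their brightest probe sets. Ndufa12, a relative of the assembly factor Ndufaf2, had signals of 4597, 3860 and 2411 in control and 5096, 5319 and 5383 in high fat mice (log2 0.59, limma adjusted p = 0.126). Ndufs4, whose loss in mice gives a model of Leigh syndrome, was at log2 0.12, and Ndufa9, which binds a nucleotide near the ubiquinone site, at 0.05 (limma adjusted p = 0.641 and 0.892). For both of these the diets overlapped.

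In the membrane arm near the matrix arm, 4 of 8 genes rose and 0 fell (median log2 difference 0.64, range 0.26 to 2.01). Ndufa3, a small subunit with a membrane helix, had the largest difference of the complex I genes. Its signals were 1443, 901 and 1572 in control and 7605, 4639 and 3801 in high fat mice, which is 4.03-fold (log2 2.01, SE 0.28, limma adjusted p = 0.00795). Ndufa1, an X-linked small membrane subunit needed for assembly, went from 2868, 2328 and 2856 to 10872, 7439 and 7441 (3.16-fold, log2 1.66, SE 0.17, limma adjusted p = 0.00277). In both genes the 3 high fat mice lay well above the 3 control mice.

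Ndufc1, which lies at the side of the membrane arm, had signals of 1280, 1016 and 1392 in control and 5111, 2485 and 2778 in high fat mice (2.69-fold, limma adjusted p = 0.0176). Its dimmer probe set gave 922, 622 and 956 against 2799, 1277 and 1592 (log2 1.13), also without overlap. Ndufc2, its neighbour and one of the brightest complex I genes, had 7298, 8747 and 7854 against 13122, 12754 and 11327 (1.56-fold, limma adjusted p = 0.0224). The other tested probe sets of Ndufc2 were at log2 0.31 and 0.41 and were not called. Ndufc1 was called in 4 and Ndufc2 in 2 of 6 fits with 1 mouse left out (up to 0.0748 without control replicate 2 and 0.0948 without control replicate 3). Ndufa13, also known as Grim19, Ndufs5, Ndufa8 and the kinase-like subunit Ndufa10 were not called, at log2 0.60, 0.64, 0.26 and 0.33.

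In the far membrane arm, 4 of 10 genes rose and 0 fell (median log2 difference 0.48, range 0.25 to 0.97). Ndufb3, a small membrane subunit, had tight groups, with signals of 2105, 2212 and 2217 in control and 4649, 4276 and 3701 in high fat mice (1.92-fold, log2 0.94, SE 0.12, limma adjusted p = 0.00555). Ndufb10, with disulphides on the intermembrane side, had 2243, 2119 and 2338 against 5712, 3757 and 3926 (1.96-fold, limma adjusted p = 0.0148). Ndufb7, of the same cysteine-rich kind, had 3575, 2415 and 3205 against 6067, 4156 and 5304 (1.69-fold, limma adjusted p = 0.0454). In these 3 genes no high fat mouse fell to the control range. Ndufb11, an X-linked membrane subunit, was bright and changed least among those called, with signals of 7262, 7857 and 8005 in control and 12224, 10735 and 9723 in high fat mice (1.41-fold, limma adjusted p = 0.0499).

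With 1 mouse left out, Ndufb3 was called in 6 of 6 fits, with log2 differences from 0.87 to 1.03. Ndufb10 was called in 4 (log2 0.78 to 1.09, adjusted p up to 0.0649 without control replicate 2), Ndufb7 in 1 (log2 0.60 to 0.91, up to 0.131 without control replicate 2) and Ndufb11 in 0 (log2 0.41 to 0.57, up to 0.14 without control replicate 3). Just outside the threshold lay Ndufb2, with signals of 1371, 1083 and 1361 in control and 3092, 1854 and 1870 in high fat mice (1.74-fold, limma adjusted p = 0.0529), and Ndufb6, with 2190, 1867 and 2259 against 3305, 2811 and 2608 (1.38-fold, limma adjusted p = 0.0703). Neither overlapped between diets. Ndufb1, Ndufb5, Ndufb8 and the LYR family member Ndufb9 were at log2 0.25 to 0.41 and were not called.

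Ndufab1 is the mitochondrial acyl carrier protein, which serves in both arms of complex I and also in mitochondrial fatty acid synthesis. Its signals were 2779, 2114 and 2432 in control and 5863, 3350 and 3917 in high fat mice (1.75-fold, limma adjusted p = 0.0496). The symbols Ndufa4 and Ndufa4l2 satisfy the naming rule but belong elsewhere, since Ndufa4 is now placed in cytochrome c oxidase and Ndufa4l2 is its hypoxia-inducible relative. Ndufa4 had signals of 4405, 4032 and 4134 in control and 7783, 5455 and 5897 in high fat mice (1.51-fold, limma adjusted p = 0.0477). Ndufa4l2 had 902, 516 and 853 against 591, 902 and 722 and was the one tested gene with a difference below 0 (log2 -0.01, limma adjusted p = 0.977). With 1 mouse left out, Ndufab1 was called in 1 and Ndufa4 in 0 of 6 fits (up to 0.152 without control replicate 2 and 0.147 without control replicate 3). Without Ndufa4 and Ndufa4l2, 15 of 33 genes had risen.

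Set side by side, the accessory subunits with the acyl carrier protein had 14 of 27 genes called higher and the core subunits 1 of 6, with medians of 0.64 and 0.32. The mean log2 signal of the 27 genes, relative to the control mean, was 1.08, 0.58 and 0.58 in high fat replicates 1, 2 and 3, and that of the 6 core genes was 0.72, 0.09 and 0.24. In control mice the accessory means were 0.05, -0.12 and 0.08 and the core means 0.05, -0.20 and 0.15. Accessory means therefore separated the diets, while core means did not. The excess of the accessory over the core mean was 0.36, 0.49 and 0.35 in high fat and 0.00, 0.08 and -0.08 in control mice. With plain _at probe sets only, the median was 0.32 over 5 core genes. It was 0.12, 0.49 and 0.41 over 5 matrix arm, 6 proximal and 9 distal membrane arm accessory genes. The contrast was thus smaller in the membrane arm and turned in the matrix arm, but the genes compared were not the same. The called matrix arm genes Ndufa2, Ndufa7 and Ndufv3 have no such probe set, and Ndufa12 was read from a dim one at log2 -0.74. No test was made of this contrast, because the genes were grouped with their values known.

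Probe sets of the same gene were not always alike. Over the 73 tested probe sets of complex I genes, 30 were called higher and 0 lower by limma when adjusted over 27022 probe sets (39 above and 3 below 0 had an unadjusted p under 0.05), where 4.63 percent were called higher and 8.27 percent lower, 12.9 percent in all. Of the 20 genes with several tested probe sets, 13 had differences above 0 throughout and 7 had both signs. Brightness mostly went with the sign, with exceptions in Ndufv2 and Ndufs8, where a bright probe set lay below 0. Of 58 probe sets with a mean signal of 1000 or more, 27 were called higher (9.77 percent of all probe sets that bright) and 56 were above 0, while of 10 under 300, 0 were called and 5 were below 0. Over all probe sets under 300, 1.39 percent were called higher and 8.15 percent lower, so a count of 0 of 10 is near that background. The same held over the whole array, where the median log2 difference was 0.06 for probe sets of 1000 or more and -0.24 for those under 300.

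The widest gap was in Ndufa3. Its bright probe sets gave log2 2.01 and 1.91 and were called, while a dim one had signals of 127, 82.0 and 118 in control and 61.4, 63.1 and 115 in high fat mice (log2 -0.49, limma adjusted p over probe sets 0.395). Ndufab1 had a second called probe set at log2 1.37, and a dim one at -0.53, with 144, 170 and 165 against 131, 96.6 and 106. For Ndufa12, 1 probe set was called (log2 0.89, limma adjusted p over probe sets 0.0308), 2 others were at 0.58 and 0.59, and a dim one was at -0.74 with 285, 225 and 234 against 169, 150 and 128. In these 3 genes the probe set with the opposite sign was far dimmer than the representative one.

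For Ndufb2, both bright probe sets were called over probe sets (log2 0.80 and 0.87, limma adjusted p = 0.0377 and 0.0305), and a dim one was at -0.71 with 209, 157 and 129 against 78, 102 and 121. Ndufs8 had 6 tested probe sets from -0.82 to 0.46, and 0 were called. One of them had signals of 1237, 1045 and 1358 in control and 4678, 999 and 978 in high fat mice, so that the positive sign came from high fat replicate 1, and no other Ndufs8 probe set stood so far above the remaining mice there. Ndufb6 was called only on its dimmer probe set (1948, 1687 and 1845 against 3739, 2976 and 2661, limma adjusted p over probe sets 0.0150). Ndufb4 failed the filter with signals of 76.9, 73.8 and 61.5 in control and 36.4, 31.5 and 32.3 in high fat mice. In contrast, a bright probe set that names Ndufb4 with its copies Ndufb4b and Ndufb4c had 2285, 2048 and 2306 against 5566, 4072 and 3520 (log2 0.96, limma adjusted p over probe sets 0.0116).

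**Figure D2:**
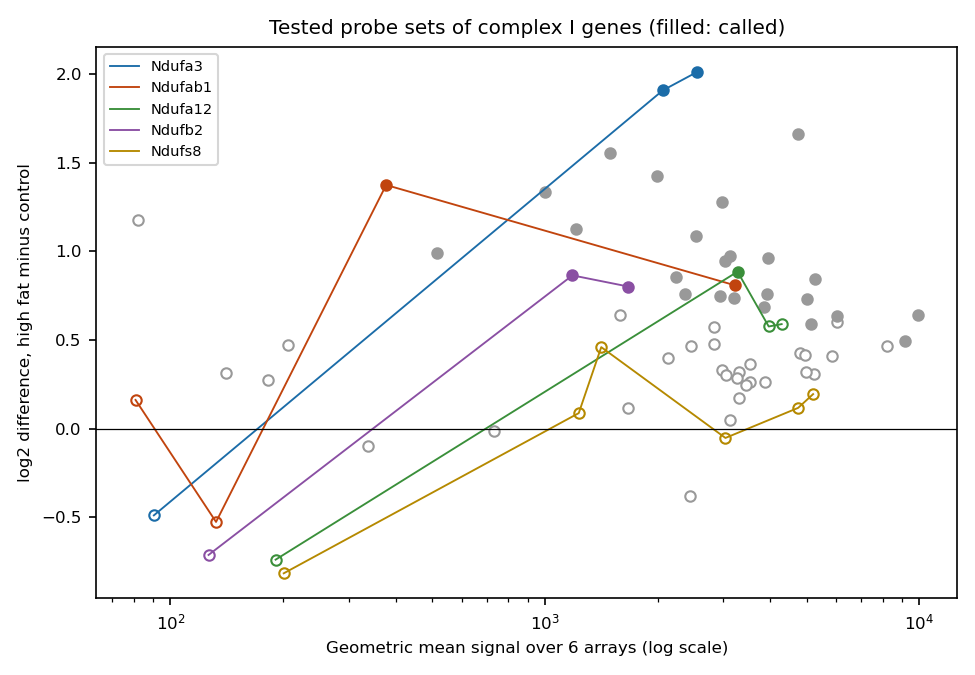
Log2 difference between the diets (vertical axis) against the geometric mean signal over 6 arrays (horizontal log axis) for the 73 tested probe sets of complex I genes. Filled circles were called over probe sets, lines join the probe sets of the 5 genes with the widest gaps, and the 10 probe sets under a signal of 300 hold 0 calls.

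Other genes of the pathway were examined from lists. Complex I assembly factors, which build the enzyme but do not stay in it, were called at near the share of all genes. Of 21 tested, 1 rose and 0 fell (median log2 difference 0.04, range -0.58 to 0.66). That is 4.76 percent, against 4.56 percent of all genes called higher. The one called was Ndufaf8, with signals of 1030, 960 and 929 in control and 1771, 1398 and 1471 in high fat mice (log2 0.66, limma adjusted p = 0.0237). The mitochondrially encoded subunit ND5, a proton channel of the membrane arm, had a bright signal of 29781, 21364 and 36595 in control and 44973, 32887 and 39219 in high fat mice (log2 0.44, limma adjusted p = 0.236). Of 17 regulators of mitochondrial biogenesis, among them Ppargc1a, Nrf1 and Tfam, 0 were called by limma (median log2 difference 0.13). Over all genes 6.75 percent were called, so a count of 0 of 17 is near that background. Of the 17, 1 had an unadjusted p under 0.05, the rRNA methyltransferase Tfb1m, named after its value was seen. A list of 18 genes around complex I holds dehydrogenases and electron carriers that make or use NADH or pass electrons to ubiquinone, and 8 genes of ubiquinone synthesis. Of these 18, 1 rose and 0 fell, 5.56 percent called (median 0.21), which is also near the share of all genes. The gene called was Nnt, the transhydrogenase that makes NADPH, with 754, 799 and 800 against 1740, 1621 and 1707 (log2 1.11, limma adjusted p = 0.00277). The median control signal was 586 for assembly factors, 414 for regulators and 914 for the list around complex I. Complex I genes were brighter, at 2836. Subunits of complexes II to V had 14 of 37 genes called higher, 37.8 percent, and 0 lower (median 0.50), so their share lay close to that of complex I and no test of a difference was made.

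Markers of muscle, fat and blood cells were read from the same arrays. The scores are mean log2 signals relative to the control mean, listed for replicates 1, 2 and 3. Of 20 cardiac muscle markers tested, 2 were called higher, 10 percent, against 4.56 percent of all genes. The cardiac markers scored 0.12, -0.57 and 0.45 in control and 2.52, 0.16 and 1.05 in high fat mice. Their summed signal ran from 27245 to 59872 in control and from 54984 to 215382 in high fat mice, so the ranges overlapped. Myl7, the atrial myosin light chain, had signals of 5381, 3655 and 7887 against 27792, 12042 and 14673. The cardiac markers called were Myl7 and Cox8b (limma adjusted p = 0.0277 and 0.0202). Cox8b, Cox6a2 and Cox7a1 on this list encode cytochrome c oxidase subunits, so its score does not rest on contractile genes alone. Adipocyte markers, with 6 of 11 called higher (54.5 percent), scored -0.66, -0.19 and 0.85 in control and 2.64, 1.88 and 2.20 in high fat mice. Their summed signal ran from 7465 to 16890 and from 40964 to 58848. Adipoq, an adipocyte hormone, went from 270, 689 and 1110 to 8372, 4790 and 4715. Of the brown fat genes on that list, named after their values were seen, Ucp1, the uncoupling protein, had signals of 2.73, 25.1 and 258 in control and 1199, 236 and 748 in high fat mice (log2 4.52, limma adjusted p = 0.0857). Cidea, a lipid droplet protein, had 174, 178 and 428 against 1160, 399 and 885 (log2 1.65, limma adjusted p = 0.0601). Neither of these 2 genes was called, and the diets overlapped for both. Genes on the cardiac list, such as Cox8b, were not checked for expression in brown fat.

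Skeletal muscle markers scored 3.15, -2.70 and -0.44 in control and 1.63, -1.85 and -2.37 in high fat mice. Of these markers 0 of 13 were called, which is near the 6.75 percent of all genes. Their summed signal ran from 1462 to 83565 and from 2525 to 28252. Acta1, skeletal actin, had signals of 20248, 68.0 and 1292 against 7335, 289 and 149. The mean over the 35 complex I genes on the same scale was 0.05, -0.14 and 0.09 in control and 0.98, 0.48 and 0.50 in high fat mice. Among leukocyte markers 5 of 13 fell and 0 rose, 38.5 percent called, where 2.2 percent of all genes were called lower. Their summed signal ran from 17658 to 26048 in control and from 8406 to 12641 in high fat mice. Of 8 endothelial markers 2 fell and 0 rose (25 percent called), with summed signals from 38595 to 47202 and from 32400 to 41400. No marker was listed at 0. Without replicate 1 of both groups, 8 of 35 complex I genes were called, all higher, where 2.71 percent of all genes were called, and the median was 0.40. The 8 were Ndufa1, Ndufa2, Ndufa3, Ndufa5, Ndufb3, Ndufb10, Ndufc1 and Ndufv3. The part of heart and skeletal muscle, fat, endothelium and leukocytes in the complex I signals was not tested beyond these values.

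**Figure D3:**
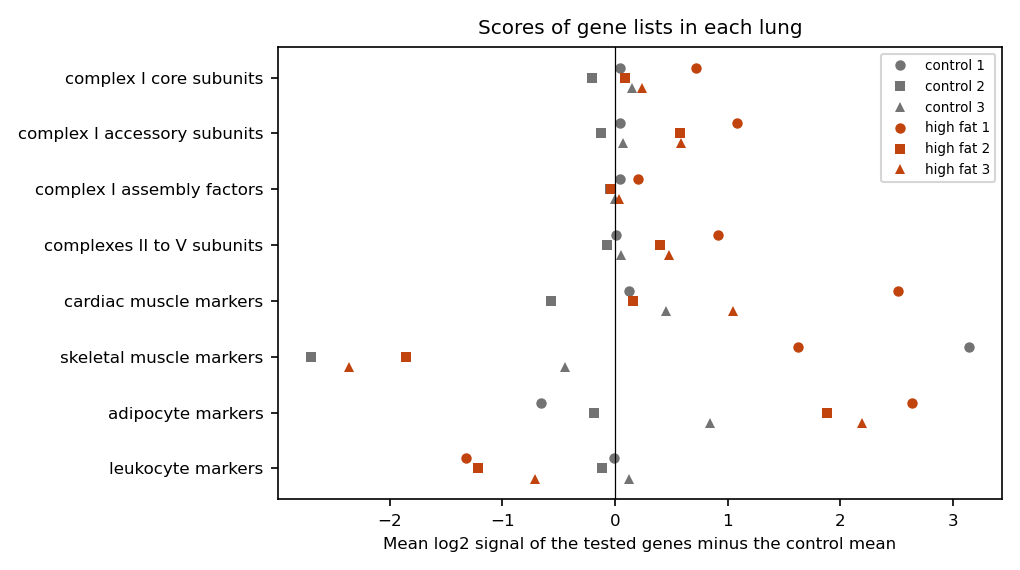
Mean log2 signal of the tested genes of each list in each mouse, minus the control mean, on the horizontal axis, with the list on the vertical axis. Grey symbols are control and orange symbols high fat mice, and shapes give the replicate. Accessory subunits, complexes II to V and adipocyte markers separate the diets with high fat mice higher, and leukocyte markers with high fat mice lower. Core subunits, assembly factors, cardiac and skeletal muscle markers overlap.

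**Figure D4:**
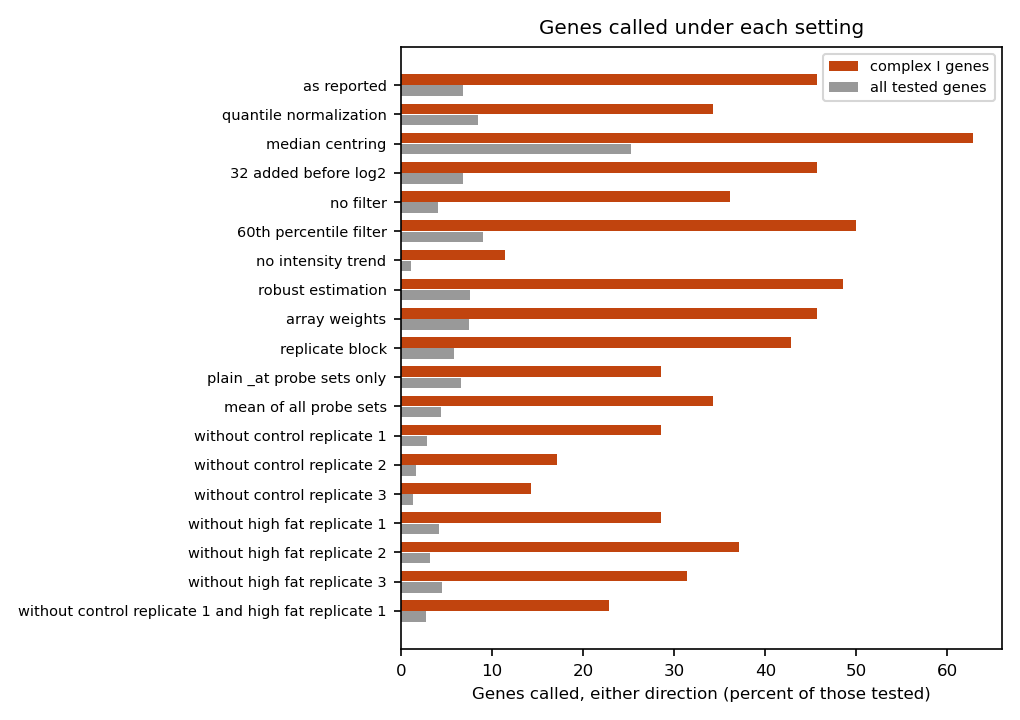
Genes called in either direction, as a percentage of those tested (horizontal axis, from 0), for complex I genes (orange bars) and all genes (grey bars) under the reported setting and 18 others (vertical axis). The complex I share ran from 11.4 to 62.9 percent and the share of all genes from 1.1 to 25.2 percent, and in each setting the complex I bar is the longer one.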

How the data were processed

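Total RNA from 6 mouse lungs was hybridised to 1 array per mouse, and the number of arrays limits the precision. The deposited values are linear intensities that the authors computed with MAS5, per the submitters' processing notes. The sources used here give neither its version nor its settings. Each array's trimmed mean, with 2 percent left out at each end, was 500. MAS5 subtracts mismatch signals, which makes dim probe sets noisy.

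Here signals were floored at 1 and log2-transformed. Probe sets with a mean log2 under the 40th percentile (6.14, a signal of 70.3) were left out, as were 64 control probe sets. limma 3.58.1 in R 4.3.3 (lmFit, eBayes with an intensity trend, 4 residual degrees of freedom) compared 3 with 3 mice, with Benjamini-Hochberg adjustment over 27022 probe sets or over 12689 genes, each represented by its brightest probe set with 1 symbol. Of all probe sets, 34958 had 1 symbol, 932 several and 9211 none, and 34754 matched RefSeq. Scripts were tested on simulated data.

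Each complex I gene may be named. Values in every mouse are given for genes called on any probe set, core subunits and the 5 genes whose probe sets differ most. In other lists, up to 4 called genes and a few single markers are named. Members and lists were chosen with earlier results of these data known. Alternatives changed the normalization, offset, filter, variance model, array weights, replicate block, probe set rule and the mice used. The labels do not say that replicate numbers pair the mice, and the reported fit does not pair them. Hybridisation dates and batches were not used here.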

Additional observations from a re-analysis of the deposited data

How the results depend on the processing

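Over 18 other settings, the 35 complex I genes gave 622 values, of which 520 kept their direction and side of the threshold, 78 were no longer called, 10 became called and 14 changed sign. Of the genes called, 0 changed sign. The count of 16 genes fell to 4 with no intensity trend (136 of all genes instead of 857), to 8 of 28 with plain _at probe sets only and to 8 without replicate 1 of both groups, a setting chosen after seeing the data. The count of 30 probe sets became 10 of 34 with plain _at probe sets and 19 without replicate 1 of both groups, 18 higher and 1 lower, and with no intensity trend it was 20, 19 higher and 1 lower. Without high fat replicate 1 or 3, 1 probe set was also called lower. The median of 0.59 became 0.86 with median centring, which moved the median of all genes from 0.06 to 0.33 and the share of all calls that were higher from 67.4 to 95.4 percent, and left the excess over all genes at 0.53. With plain _at probe sets it became 0.33, and the median of matrix arm accessory genes fell from 0.80 to 0.12, below the 0.32 of core genes. That fit lacked the called genes Ndufa2, Ndufa7 and Ndufv3 and read Ndufa12 from a dim probe set. With 1 mouse left out, 5 to 13 genes and 14 to 28 probe sets were called and the median ran from 0.44 to 0.64. The fewest genes were called without control replicate 3 and the fewest probe sets without control replicate 2. Fits with fewer mice or probe sets test less, and otherwise the cause was not tested. Of all genes, 3197 were called with median centring, 515 when probe sets of a gene were averaged, and 170 to 570 with 1 mouse left out.

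With the replicate block, 15 genes and 30 probe sets were called and the median was 0.59. Deviations of same-numbered mice correlated at 0.17, 0.11 and -0.04, and those of differently numbered mice at -0.21 to 0.13. The labels do not say whether the numbers pair the mice, and correlations this small cannot settle it.

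Values that changed sign belonged to genes that were not called. Ndufa9 was at -0.0069 with quantile normalization, -0.021 with array weights and -0.13 without replicate 1 of both groups, and ran from -0.15 to 0.24 with 1 mouse left out. Ndufa4l2 was at 0.26 with median centring and 0.28 without replicate 1 of both groups, and ran from -0.27 to 0.14 with 1 mouse left out. Ndufa12 and Ndufb2 were at -0.74 and -0.71 with plain _at probe sets and Ndufs8 at -0.0012 with the mean of all probe sets. Ndufs4 ran from -0.019 to 0.22 with 1 mouse left out.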

Other observations

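Probe sets that name a complex I subunit together with a copy or pseudogene were outside the counts above, because related transcripts cannot be told apart. Ndufs6, an accessory subunit of the matrix arm, is named with Ndufs6b by a probe set with signals of 2051, 1509 and 1647 in control and 3294, 2537 and 2760 in high fat mice (log2 0.73, limma adjusted p over probe sets 0.0205). Ndufa11, a membrane subunit, is named with Ndufa11b by one with 2149, 1743 and 2044 against 3826, 2610 and 3009 (log2 0.66, limma adjusted p over probe sets 0.0308). Ndufs5, named with its pseudogene, had 1374, 1499 and 1532 against 3341, 2495 and 2026 (log2 0.81, limma adjusted p over probe sets 0.0226). In these 3 probe sets the diets did not overlap, and for Ndufs5 the call differs from that of its representative probe set, at log2 0.64 and not called.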
